A study of Mus musculus with 16 samples.

Results

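The genes described here are those whose signal was higher after 24 h than after 6 h of normoxic culture and, at 24 h, lower in hyperoxia than in normoxia. They were chosen by a rule on measured values. A gene had to be well above background on at least 3 of 4 normoxia 24 h arrays, its mean had to be at least 0.8 higher on the log2 scale at 24 h than at 6 h in normoxia, and its mean had to be at least 0.8 lower in hyperoxia than in normoxia at 24 h. The rule took 132 of the 22463 genes that passed its background filter, or 0.588%, and 107 of the 132 have a RefSeq symbol. The whole array holds 34832 gene names, of which 25426 were tested. RNA of C57BL/6 mouse alveolar type II cells in primary culture, which in the lung make surfactant, was measured on 16 one-colour arrays. The 4 groups of 4 arrays were hyperoxia (85% O2) for 24 h, normoxia (21% O2) for 24 h, hyperoxia for 6 h and normoxia for 6 h. No genetic change or other agent is given in the labels, which also do not say whether the replicates came from separate animals or cultures. Where they did not, p-values measure only the spread between these samples, which may be technical.

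The gene lists used here were written with earlier results of these data known. Among those lists, the one that held the most of these genes was the integrated stress response. In that pathway, kinases that sense amino acid shortage, unfolded protein, haem shortage or double-stranded RNA phosphorylate the translation factor eIF2, general protein synthesis slows, and the transcription factor ATF4 is made in greater amount. ATF4 then raises genes for amino acid uptake, for the synthesis of serine, glycine, proline and cysteine, for mitochondrial one-carbon metabolism and for the charging of transfer RNAs, along with genes for regulators such as Ddit3 (CHOP) and Trib3. Alveolar type II cells placed in culture are known to lose surfactant gene expression and to spread and change their phenotype.

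The rule sets its own pattern, because normoxia 24 h is the high arm of both differences. An array group that reads high by error pulls genes into the set, and the reverse pattern is favoured in the same way. The opposite was seen in 158 genes, and how far the bias added to them was not tested. Their mean was at least 0.8 lower at 24 h than at 6 h in normoxia and at least 0.8 higher in hyperoxia than in normoxia at 24 h. By comparison 49 genes were higher by 0.8 in both differences and 38 lower by 0.8 in both. The values in normoxia at both times and in hyperoxia at 24 h are therefore given below as a description, with no test. The hyperoxia 6 h arrays were not used by the rule, and the 2 comparisons that contain them were tested. In hyperoxia 6 h against normoxia 6 h, the shared normoxia group was the low arm of the rule, so its bias runs towards higher values in hyperoxia. In hyperoxia 24 h against hyperoxia 6 h, the shared hyperoxia 24 h group was a low arm, so the bias runs towards a fall over time. Levels are log2 signal relative to the 75th percentile of the same array, and differences are log2 as well, with SE for differences and SD for group means (n = 4 arrays per group). A gene rose or fell in a tested comparison where its limma adjusted p over 25426 genes was under 0.05.

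**Figure D1:**
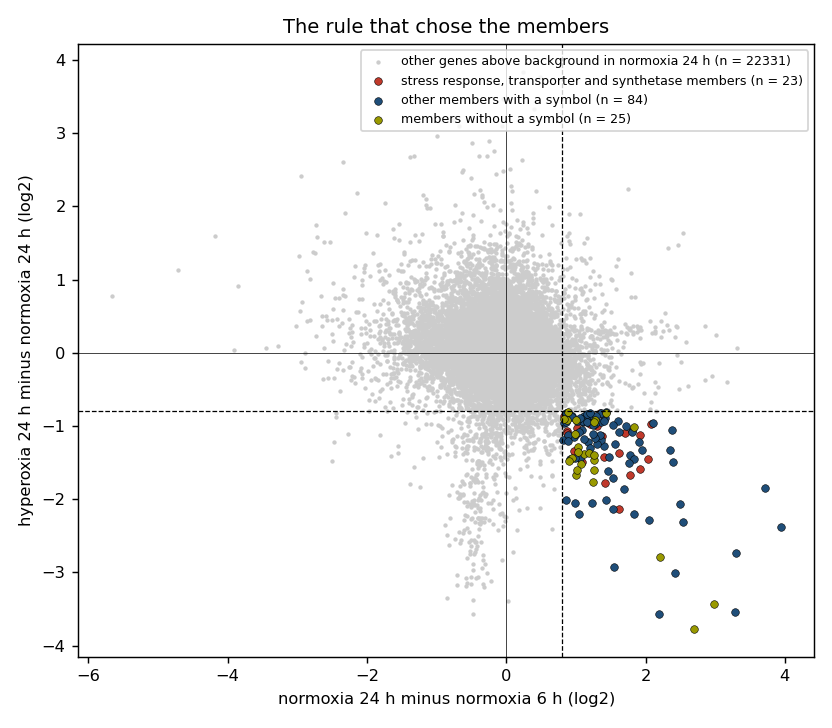
Each point is 1 of the 22463 genes above background in normoxia 24 h, with its mean log2 difference of 24 h minus 6 h in normoxia on the x axis and of hyperoxia minus normoxia at 24 h on the y axis. Dashed lines mark the rule at 0.8 and -0.8, and the 132 members in the lower right corner are coloured by group, with 23 stress response, transporter and synthetase genes, 84 other genes with a symbol and 25 without.

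All arrays gave usable signal. The share of probes well above background ran from 53.7% to 69.0%, the 75th percentile of signal lay between 556 and 801 at 24 h and between 899 and 1021 at 6 h, and no spot was saturated. The number of arrays limits the precision. Each time point had a slide of its own, and time and slide cannot be told apart. Markers of the labelled cell type were read, but they do not settle how pure the cultures were. Of 31 type II markers 29 were tested, among them Sftpc with group means of 1.84 in hyperoxia 24 h, 1.39 in normoxia 24 h, 4.34 in hyperoxia 6 h and 3.88 in normoxia 6 h. Of the 29, 4 were higher and 7 lower in hyperoxia at 24 h (15.5% and 12.8% of all genes). Their median log2 difference was -0.11, so Sftpc does not stand for the list. The summed linear signal of the list, in multiples of the 75th percentile, was 96.2 to 119 in hyperoxia 24 h, 114 to 130 in normoxia 24 h, 172 to 240 in hyperoxia 6 h and 161 to 198 in normoxia 6 h. Markers of fibroblasts and smooth muscle were also measured, 15 of 15 tested, with sums of 1508 to 1604, 1615 to 1858, 888 to 1175 and 943 to 1129 in the same order of groups. In such bulk samples, fewer cells of a type and less RNA per cell cannot be told apart.

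Of the 132 members, 23 are on the lists for the integrated stress response (16 genes), amino acid transport (4) and aminoacyl-tRNA synthetases (3). All 23 were well above background on every array of every group, and in each of them all 4 normoxia 24 h arrays lay above all hyperoxia 24 h and all normoxia 6 h arrays. Over all members that separation held for 92, and over all genes passing the background filter for 5.68%, but the rule used these groups, so nothing is read from the counts. The 23 genes stood 0.82 to 2.14 lower on the log2 scale in hyperoxia than in normoxia at 24 h, with a median of -1.13. In normoxia they stood 0.83 to 2.08 higher at 24 h than at 6 h, with a median of 1.34. None of the 132 members is on the lists for mitosis (123 genes tested), DNA replication (67), matrix and TGF-beta (81), ribosome biogenesis (50), endoplasmic reticulum chaperones (41) or cholesterol synthesis (27). The rule took 0.588% of all genes passing the background filter, and at that share such lists would hold few members or none. Nothing is therefore read from these zeros. The members Lama1, Adamts14 and Ddr2 are not on the matrix list. The gene lists were written with earlier results of these data known, so membership counts describe the set and support nothing further.

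The DNA sequence element linked with this pathway is the CARE element, TGATGNAA, which reads TTNCATCA on the other strand and is bound by ATF4 with C/EBP partners. RefSeq promoters (GRCm38.p6, 250 bases before to 50 after the gene start) were found for 75 members. The element was present in 13 of them, or 17.3%, against 4.51% of all 27025 genes with a promoter in the table. Among the stress response, transporter and synthetase members it was present in 8 of 16 promoters, and among the other members in 5 of 59, or 8.47%. Genes of the same lists that are not members had it in 12 of 48, and culture-induced genes that hyperoxia did not lower by 0.8 had it in 17 of 366, or 4.64%. The promoters below were chosen because they hold a match. That their genes moved together was set by the rule and is no support. Aldh18a1, Eprs, Gpt2, Mthfd2, Psat1, Psph, Slc6a9 and Stc2, also stress response, transporter and synthetase members, had no match. The lists name genes known from this pathway, so the share among their members describes them and supports nothing further. The matched bases are in capitals.

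Fgf21, GRCm38.p6 chr7:45615441-45615740, minus strand: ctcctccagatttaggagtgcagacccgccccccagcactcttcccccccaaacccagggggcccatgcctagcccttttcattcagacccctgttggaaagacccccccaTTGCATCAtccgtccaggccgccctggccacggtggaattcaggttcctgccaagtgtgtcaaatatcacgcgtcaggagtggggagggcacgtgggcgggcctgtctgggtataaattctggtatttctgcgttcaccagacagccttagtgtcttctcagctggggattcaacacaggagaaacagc
Pck2, GRCm38.p6 chr14:55540016-55540315, plus strand: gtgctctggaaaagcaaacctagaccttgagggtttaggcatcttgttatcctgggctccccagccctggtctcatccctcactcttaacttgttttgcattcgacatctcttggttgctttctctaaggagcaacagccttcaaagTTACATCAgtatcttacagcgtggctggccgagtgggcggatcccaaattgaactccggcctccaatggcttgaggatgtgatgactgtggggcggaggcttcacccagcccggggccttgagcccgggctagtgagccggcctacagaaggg
Trib3, GRCm38.p6 chr2:152344011-152344310, minus strand: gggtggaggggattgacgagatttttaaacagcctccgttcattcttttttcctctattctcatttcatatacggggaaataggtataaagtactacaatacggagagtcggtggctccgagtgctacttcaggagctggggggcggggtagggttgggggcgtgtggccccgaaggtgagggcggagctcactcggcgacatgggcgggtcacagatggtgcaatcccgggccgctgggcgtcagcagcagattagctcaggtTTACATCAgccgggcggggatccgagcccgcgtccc
Yars, GRCm38.p6 chr4:129189653-129189952, plus strand: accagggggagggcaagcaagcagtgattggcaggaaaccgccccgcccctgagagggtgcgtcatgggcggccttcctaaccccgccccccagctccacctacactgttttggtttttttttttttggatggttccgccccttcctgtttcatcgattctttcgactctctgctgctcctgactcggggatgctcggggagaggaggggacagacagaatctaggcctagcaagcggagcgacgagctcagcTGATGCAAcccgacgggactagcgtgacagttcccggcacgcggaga

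Counted from the annotated start, the match begins at base -139 in Fgf21 and -103 in Pck2, while it lies after the start in Trib3 and Yars. Chac1, Jdp2, Pycr1 and Rab39b also had a match, as did Ank2, Avil, Cyb5r2, Mdfic and Tubb3 among the other members. A match is a description of letters and not a measured binding site. A further 9 motifs were searched on both strands. Shares of members against all promoters were 41.3% against 41.1% for the CCAAT box (CCAAT), 14.7% against 20.2% for the CHR (TTTGAA), 8% against 8.09% for the E-box (CACGTG), 1.33% against 2.03% for the CRE (TGACGTCA) and 8% against 8.97% for the AP-1 site (TGANTCA). The CCAAT box also forms part of the ERSE (0.137% of all promoters). It had 0 matches in the 75 member promoters, as did the E2F forms TTTCGCGC (0.374% of all promoters) and TTTGGCGC (0.585%), and SRE-1 (0.0999%) had 1.

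The stress response members include secreted factors and regulators. Fgf21 encodes a hormone that regulates energy metabolism and is a known ATF4 target. Its levels were 0.20, -0.63, 0.43 and -0.07 in hyperoxia 24 h, 2.03, 2.22, 2.27 and 1.96 in normoxia 24 h, 0.06, -0.02, -0.37 and -0.46 in hyperoxia 6 h, and 0.79, 0.64, 0.42 and 0.14 in normoxia 6 h. The lowest normoxia 24 h array, at 1.96, stood above the highest array of the other groups, at 0.79, and the mean stood 4.40-fold lower in hyperoxia at 24 h (log2 difference -2.14 ± 0.20). Trib3, a pseudokinase induced by ATF4 that dampens its activity, had levels of 4.80, 3.48, 4.98 and 4.46 in hyperoxia 24 h against 6.14, 6.03, 6.19 and 6.01 in normoxia 24 h. Its 6 h levels were 4.23, 3.73, 4.05 and 3.63 in hyperoxia and 4.56, 4.26, 4.16 and 4.27 in normoxia, so the hyperoxia 24 h arrays spread over both sides of the normoxia 6 h range. Chac1, which breaks down glutathione, showed a wider spread still, with 4.43, 2.76, 4.59 and 3.86 in hyperoxia 24 h and 4.95, 5.03, 4.74 and 4.84 in normoxia 24 h. The transcriptional repressor gene Jdp2 differed by -1.07 ± 0.12, the secreted glycoprotein gene Stc2 by -0.82 ± 0.18 and the vesicle traffic gene Rab39b by -1.09 ± 0.33 between hyperoxia and normoxia at 24 h.

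Other stress response members encode enzymes. Psat1 and Psph encode the second and last enzymes of serine synthesis. Psat1 had levels of 4.65, 3.76, 4.49 and 4.52 in hyperoxia 24 h, against 5.64, 5.29, 5.52 and 5.66 in normoxia 24 h. Its 6 h arrays, 4.42 to 4.68 in hyperoxia and 4.52 to 4.79 in normoxia, overlapped the hyperoxia 24 h arrays and lay below all normoxia 24 h arrays. Psph had 3.84 to 4.38 in hyperoxia 24 h and 5.02 to 5.23 in normoxia 24 h. Mthfd2, a mitochondrial enzyme of the folate cycle, had 3.43, 2.66, 3.28 and 3.14 in hyperoxia 24 h, 4.65, 4.55, 4.41 and 4.58 in normoxia 24 h, 2.94, 2.98, 2.54 and 2.70 in hyperoxia 6 h and 3.41, 3.17, 2.95 and 3.03 in normoxia 6 h. The folate dehydrogenase gene Aldh1l2 stood 2.59-fold lower in hyperoxia at 24 h. Pycr1 and Aldh18a1, which encode enzymes of proline synthesis, differed by -1.44 ± 0.17 and -1.34 ± 0.16, and their hyperoxia 24 h means also lay below those of normoxia 6 h, by 0.40 and 0.37. Cth, which makes cysteine from cystathionine, had levels of 2.73, 1.64, 2.66 and 2.31 in hyperoxia 24 h, against 4.07, 3.80, 4.02 and 3.79 in normoxia 24 h. The range in hyperoxia 24 h took in the normoxia 6 h range of 1.89 to 2.19. Gpt2, a mitochondrial alanine transaminase, differed by -1.13 ± 0.13, and Soat2, a cholesterol-esterifying enzyme, by -0.97 ± 0.14. Pck2, the mitochondrial PEP carboxykinase gene, had levels of -1.66, -2.28, -1.81 and -2.03 in hyperoxia 24 h, -0.23, -0.15, -0.07 and -0.24 in normoxia 24 h, -1.75, -1.76, -2.33 and -1.99 in hyperoxia 6 h and -1.25, -1.61, -1.79 and -1.72 in normoxia 6 h. The lowest normoxia 24 h array of Pck2, at -0.24, thus stood above the highest of the other groups, at -1.25.

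**Figure D2:**
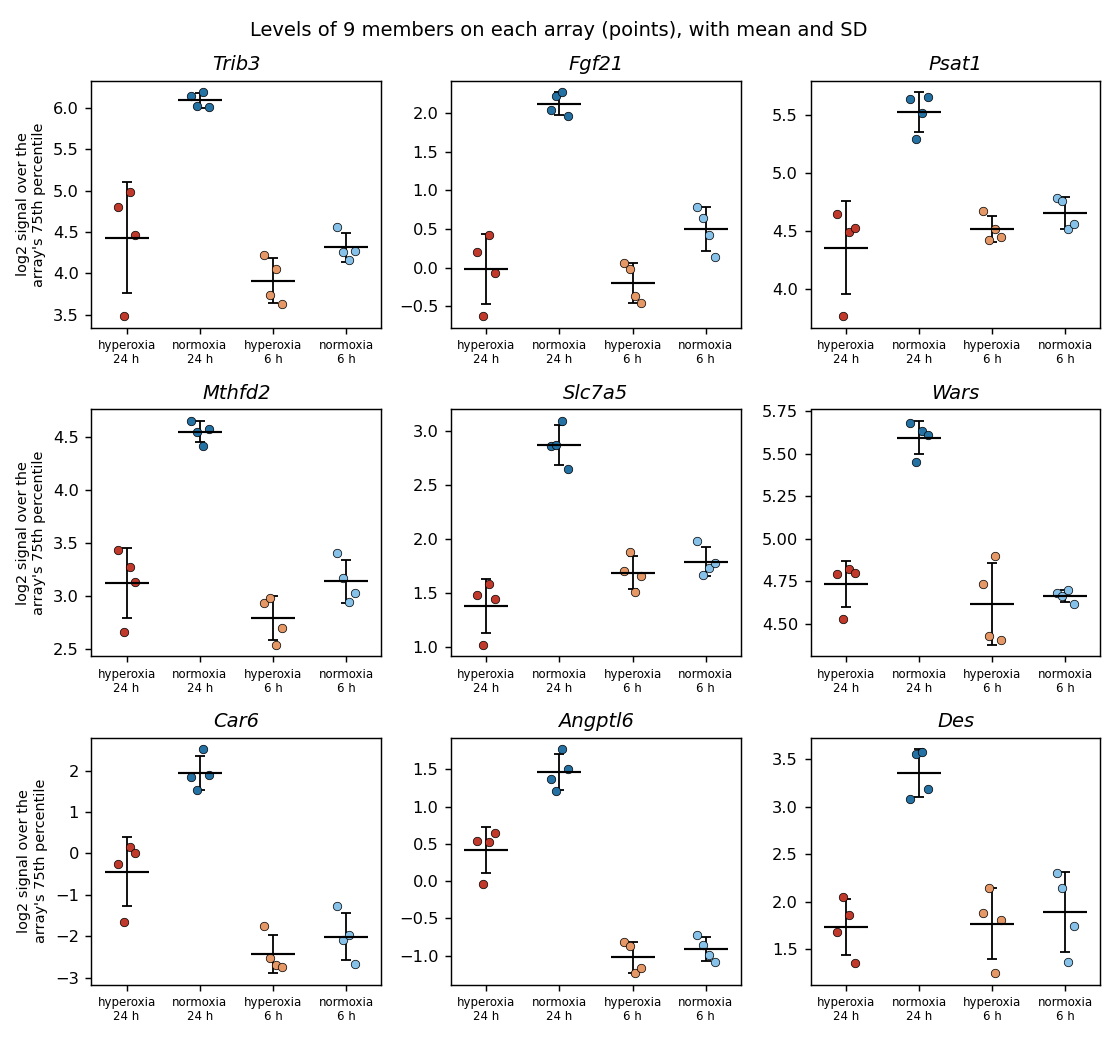
Each panel shows 1 gene, with the log2 level over the array's 75th percentile on the y axis, 1 point per array, and the group mean with SD (n = 4). In all 9 genes the 4 normoxia 24 h arrays lie above the hyperoxia 24 h arrays, and in Car6 and Angptl6 the hyperoxia 24 h arrays also lie above the hyperoxia 6 h arrays.

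Transporters of amino acids and enzymes that charge transfer RNAs completed this group. Slc7a5, the light chain of a leucine transporter, had levels of 1.48, 1.02, 1.59 and 1.44 in hyperoxia 24 h, 2.87, 2.87, 3.10 and 2.65 in normoxia 24 h, 1.71, 1.88, 1.50 and 1.65 in hyperoxia 6 h and 1.98, 1.66, 1.73 and 1.77 in normoxia 6 h. All hyperoxia 24 h arrays of Slc7a5 were below all normoxia 6 h arrays. Slc7a3, a transporter of arginine and lysine, had 2.18, 1.86, 2.27 and 2.04 in hyperoxia 24 h, against 3.43, 3.69, 3.76 and 3.27 in normoxia 24 h. Slc6a9, a glycine transporter, had 4.68, 3.88, 4.67 and 4.23 in hyperoxia 24 h, against 5.56, 5.55, 5.57 and 5.30 in normoxia 24 h. The glutamine transporter gene Slc1a5 stood 2.14-fold lower in hyperoxia at 24 h. Among the synthetases, Wars (tryptophan) had 4.79, 4.53, 4.82 and 4.80 in hyperoxia 24 h, against 5.68, 5.45, 5.63 and 5.61 in normoxia 24 h. Yars (tyrosine) and Eprs (glutamate and proline) differed by -1.03 ± 0.09 and -0.86 ± 0.09. The second probe of Slc7a5 and that of Wars had the same signs but did not meet the rule, with differences of -0.64 and -0.95 between hyperoxia and normoxia at 24 h and of 0.13 and 0.58 between 24 h and 6 h in normoxia.

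Genes of the same lists that are not members show which parts of the pathway moved otherwise. Of 23 further integrated stress response genes, 20 rose and 2 fell between 6 h and 24 h of normoxia (20.6% and 23.5% of all genes), and 16 rose and 4 fell over the same time in hyperoxia (25.0% and 27.4% of all genes). Atf3 and Cbs fell in both, and Shmt2 and Mthfd1l in hyperoxia, where 2 calls remained with median scaling. At 24 h, 11 of the 23 were lower and 3 higher in hyperoxia than in normoxia (12.8% and 15.5% of all genes), where the higher ones were Gdf15, Cbs and Sesn2. The rule used the normoxic and the 24 h comparison to set members apart, so these counts describe what it left over. In contrast to the regulator gene Atf3, 5 regulator genes chosen after their values were seen, Ddit3, Atf5, Ppp1r15a, Cebpb and Atf4, were higher in the later samples whatever the oxygen level. Ddit3, the transcription factor CHOP, had 2.87, 1.93, 3.19 and 2.92 in hyperoxia 24 h, 3.24, 2.95, 3.32 and 3.23 in normoxia 24 h, 0.42, 0.36, -0.02 and 0.07 in hyperoxia 6 h and 0.88, 0.64, 0.41 and 0.35 in normoxia 6 h. It rose by 2.52 ± 0.22 over time in hyperoxia (limma adjusted p = 5.97e-07) and by 2.61 ± 0.22 in normoxia, and the 24 h arrays of the oxygen groups overlapped. Its difference between hyperoxia and normoxia at 24 h was -0.46 ± 0.22 (limma adjusted p = 0.140, and 0.0257 with same-numbered arrays as a block, with a range of 0.0257 to 0.404 over 16 alternatives). Atf5, a related transcription factor, rose by 1.08 ± 0.11 in hyperoxia and 1.16 ± 0.11 in normoxia, and differed by -0.28 ± 0.11 at 24 h (limma adjusted p = 0.0701, and 0.00920 with the block, with a range of 0.00920 to 0.211). With the block, Ddit3 and Atf5 were thus both called lower in hyperoxia at 24 h. Ppp1r15a, which directs dephosphorylation of eIF2, rose by 0.90 and 1.29 in hyperoxia and normoxia, and Cebpb, a partner of ATF4, by 0.83 and 0.88. Atf4 itself rose by 0.45 ± 0.09 in hyperoxia and 0.70 ± 0.09 in normoxia, and was lower in hyperoxia at 24 h (log2 difference -0.35 ± 0.09, limma adjusted p = 0.00870).

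Some genes of these lists lay just outside the thresholds. Shmt2, the mitochondrial serine hydroxymethyltransferase, missed the rule with a difference of 0.79 ± 0.09 between 24 h and 6 h in normoxia. Its levels were 3.44, 3.06, 3.31 and 3.32 in hyperoxia 24 h, against 4.59, 4.58, 4.67 and 4.71 in normoxia 24 h, and it fell by 0.52 on the log2 scale over time in hyperoxia (limma adjusted p = 0.000226). Phgdh, the first enzyme of serine synthesis, stood 0.77 ± 0.08 higher at 24 h in normoxia and differed by -0.94 ± 0.08 between hyperoxia and normoxia at 24 h. Asns, which makes asparagine, missed the other threshold, with a difference of -0.78 ± 0.13. Of 17 other synthetase genes, 13 rose and 0 fell over time in normoxia (20.6% and 23.5% of all genes). At 24 h, 14 were lower and 1 higher in hyperoxia (12.8% and 15.5% of all genes). The 1 higher, Qars (0.20), was no longer called without any 1 of the hyperoxia 24 h arrays or without normoxia 24 h replicate 1, 3 or 4. Of 18 other transporters 8 rose and 4 fell over time in normoxia (20.6% and 23.5% of all genes), and 8 were lower and 3 higher in hyperoxia at 24 h (12.8% and 15.5% of all genes). The shares that fell over time and that were higher in hyperoxia were thus near those of all genes. The count that rose was 5 without normoxia 24 h replicate 2 or 3 or normoxia 6 h replicate 1. The transporter partner gene Slc3a2, whose product pairs with that of Slc7a5, differed by -0.61 ± 0.13 at 24 h. Among all genes, those nearest inside the rise threshold were Pkdcc (0.81), Siah2 (0.83) and Eprs (0.83), and those nearest outside were Herpud1 (0.80), Shmt2 (0.79) and Kctd15 (0.78). For the difference at 24 h, Adamts14 (-0.81), 8030453O22Rik (-0.82) and Ddr2 (-0.82) were just inside and Nr1i3 (-0.79), Cd200 (-0.79) and Ciart (-0.78) just outside.

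**Figure D3:**
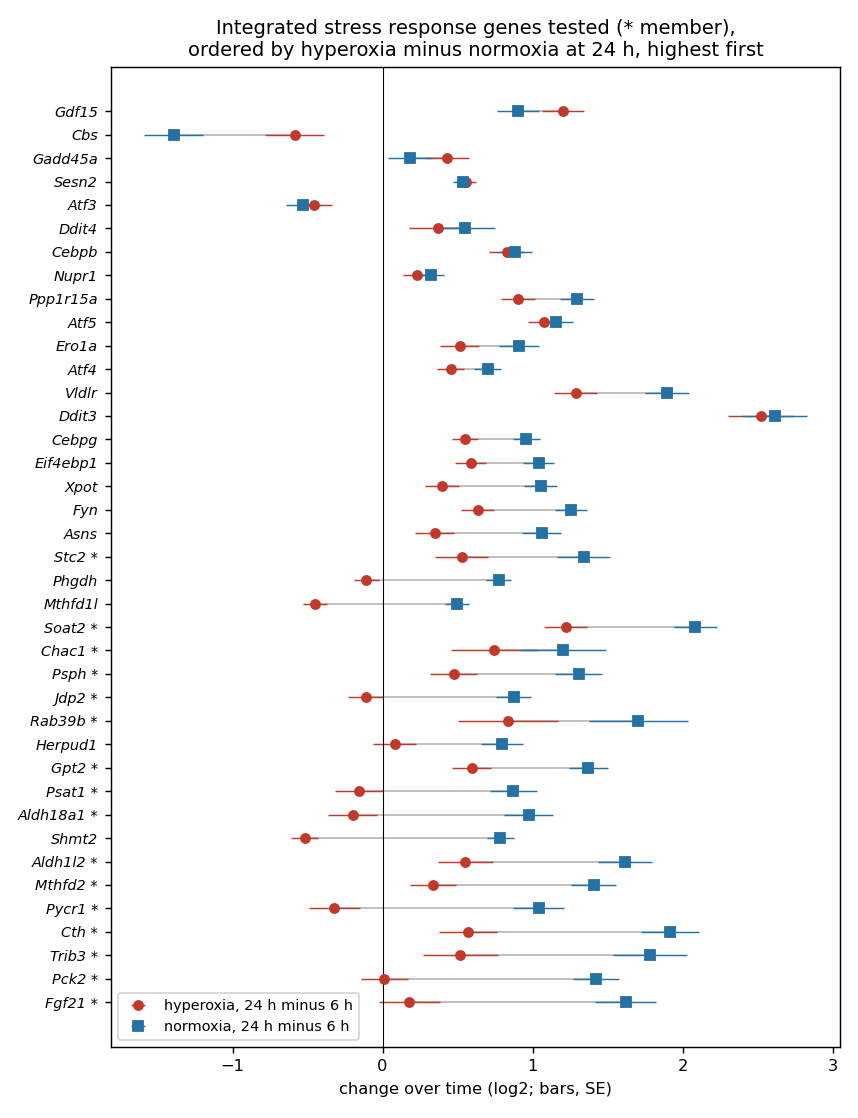
For each of 39 integrated stress response genes, the log2 change between 6 h and 24 h is shown in hyperoxia (red circles) and in normoxia (blue squares) with SE, in order of the difference between hyperoxia and normoxia at 24 h. The circles and squares lie close together for Ddit3 (2.52 and 2.61) and far apart for Fgf21 (0.18 and 1.62), and starred genes are members.

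The rule did not compare the 2 times in hyperoxia. Of 132 members 33 rose and 1 fell between 6 h and 24 h of hyperoxia. The share that rose, 25.0%, equals the 25.0% of all genes, while 27.4% of all genes fell. Culture-induced genes that hyperoxia did not lower by 0.8 are a set with the same choice on normoxia, and 567 of those 671 rose, or 84.5%. The median log2 change over time in hyperoxia was 0.23 for the members, 0.99 for that set and -0.02 for all genes. With arrays scaled to their median in place of the 75th percentile, the median of all genes shifted to 0.20 and that of the members to 0.45, and 57 members rose and 0 fell. Since the hyperoxia 24 h group was chosen to be low in the members, the share that rose is biased downwards, and the members cannot be compared with the other set as if chosen alike. Relative to normoxia 6 h, 73 members had a higher and 59 a lower mean in hyperoxia 24 h. Over the 119 members that were well above background on an array of each group the rule used, the median share of the normoxic difference that was present in hyperoxia 24 h was 8.34%, and it was over 50% in 3 genes. The rule itself limits this share, because each member had to be at least 0.8 lower in hyperoxia. A gene with a small rise in normoxia could not exceed 50%, so nothing is read from the median or the count.

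Those 3 genes were Angptl6, Acot2 and Soat2. Angptl6, a secreted angiopoietin-like growth factor, had 0.54, -0.04, 0.52 and 0.65 in hyperoxia 24 h, 1.37, 1.21, 1.77 and 1.50 in normoxia 24 h, -0.81, -0.87, -1.24 and -1.17 in hyperoxia 6 h and -1.09 to -0.72 in normoxia 6 h. The levels thus formed an ordered series without overlap between the 24 h groups or between times, and the rise in hyperoxia was 1.44 ± 0.16 (limma adjusted p = 5.73e-06). Acot2, a mitochondrial acyl-CoA thioesterase, rose by 1.31 ± 0.13 in hyperoxia (limma adjusted p = 2.60e-06), and Soat2 by 1.22 ± 0.14 (limma adjusted p = 9.95e-06). Gm19410 rose as well (limma adjusted p = 0.000214), but it was not well above background on any 6 h array, so that only limits can be given, and its normoxia 24 h level was at least 10.7-fold that of normoxia 6 h. Car6, a secreted carbonic anhydrase, had the largest difference over time in normoxia among the members, 3.95. Its levels were -0.26, -1.67, 0.15 and -0.00017 in hyperoxia 24 h, 1.83, 1.52, 2.52 and 1.89 in normoxia 24 h, -1.75, -2.53, -2.69 and -2.75 in hyperoxia 6 h and -1.28, -2.10, -1.98 and -2.67 in normoxia 6 h. Replicate 2 was the lowest hyperoxia 24 h array of Car6, and the rise in hyperoxia was 1.99 ± 0.39 (limma adjusted p = 0.000712).

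Of the 23 stress response, transporter and synthetase members, 10 rose and 0 fell over time in hyperoxia, against 25.0% and 27.4% of all genes. Besides Soat2 they were Slc6a9 (1.15 ± 0.18), Slc7a3 (0.84 ± 0.23), Rab39b (0.84 ± 0.33), Chac1 (0.74 ± 0.29), Gpt2 (0.59 ± 0.13), Cth (0.57 ± 0.19), Aldh1l2 (0.55 ± 0.18), Stc2 (0.53 ± 0.18) and Psph (0.47 ± 0.16). The calls of Soat2, Slc6a9, Slc7a3 and Gpt2 held in all 16 alternatives run. That of Chac1 ended in 12, Rab39b in 7, Stc2 in 6, Cth and Psph in 5 each and Aldh1l2 in 4, including fits without hyperoxia 24 h replicate 1 or 3 and without hyperoxia 6 h replicate 4 for each of these 6 genes. The enzymes Psat1 (-0.16 ± 0.16), Pycr1 (-0.32 ± 0.17) and Aldh18a1 (-0.20 ± 0.16), the transporters Slc7a5 (-0.31 ± 0.13) and Slc1a5 (-0.20 ± 0.12) and the repressor Jdp2 (-0.11 ± 0.12) had values below 0 and did not pass. Among the other members the rise passed for Niban1, a protein made under endoplasmic reticulum stress (0.84 ± 0.11), for the deubiquitinase gene Otub2 (0.81 ± 0.13), for the collagen receptor gene Ddr2 (0.68 ± 0.12), for the procollagen protease gene Adamts14 (0.73 ± 0.16), for the oestrogen-forming enzyme gene Hsd17b1 (limma adjusted p = 0.00280) and for Cyb5r2 (0.54 ± 0.21). The call of Cyb5r2 ended in 8 alternatives, among them those without hyperoxia 24 h replicate 1, 3 or 4 or hyperoxia 6 h replicate 2, 3 or 4, and that of Adamts14 in 1, the mean over all its probes. The 1 member that fell is known only by its position on the array, chr8:124397412-124398022_R, with -4.74, -5.26, -4.47 and -4.63 in hyperoxia 24 h against -3.74, -4.07, -4.33 and -4.30 in hyperoxia 6 h.

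**Figure D4:**
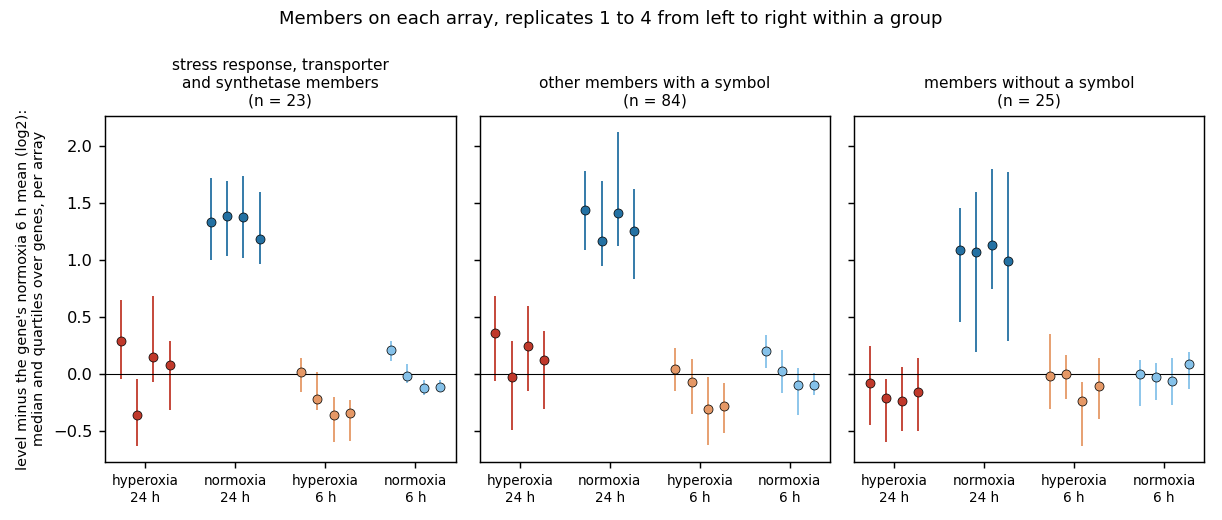
For each array, the median and quartiles over member genes of the level minus the gene's normoxia 6 h mean are shown (log2), by group of members. In the stress response panel the normoxia 24 h arrays lie at 1.19 to 1.39 and the hyperoxia 24 h arrays at -0.36 to 0.29, with replicate 2 lowest.

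Single arrays stood apart in these values. Hyperoxia 24 h replicate 2 was the lowest of its 4 arrays in 22 of the 23 stress response, transporter and synthetase members and in 83 of all 132. Normoxia 24 h replicate 4 was the lowest of its group in 14 of the 23 and 48 of the 132. At 6 h, replicate 1 was the highest of its group in 18 of the 23 and 77 of the 132 in normoxia. In hyperoxia 6 h it was the highest in 15 and 69. Over those 23 genes, the median level minus the normoxia 6 h mean was 0.29, -0.36, 0.15 and 0.08 on the hyperoxia 24 h arrays and 1.33, 1.39, 1.38 and 1.19 on the normoxia 24 h arrays. It was 0.02, -0.22, -0.36 and -0.34 in hyperoxia 6 h and 0.22, -0.02, -0.12 and -0.11 in normoxia 6 h. Without hyperoxia 24 h replicate 2, the rule was met by 114 genes, 111 of them members, and 18 of the 23 stress response, transporter and synthetase genes still met it. Eprs, Wars, Chac1, Rab39b and Stc2 did not. Without normoxia 24 h replicate 2, Slc1a5 and Stc2 no longer met it, and Eprs no longer did without replicate 3 of either normoxia group.

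At 6 h, no member was called. Of 132 members 0 were higher and 0 lower in hyperoxia than in normoxia by limma over all genes, against 0.236% and 0.0905% of all genes. At an unadjusted p under 0.05, 13 members were lower and 0 higher, where 3.35% of all genes were lower. The smallest adjusted p was 0.226, for Tbc1d31, which was chosen after its values were seen and had 0.43, 0.18, 0.49 and 0.26 in hyperoxia 6 h against 0.62, 0.83, 0.61 and 0.63 in normoxia 6 h. The direction was nevertheless mostly the same. The difference was below 0 in 104 of 132 members, or 78.8%, and in 46.2% of all genes, with a median of -0.14 in the members and 0.01 in all genes. It was below 0 in 23 of the 23 stress response, transporter and synthetase members, with a median of -0.19, while among genes of the same lists that are not members it was below 0 in 11 of 23 integrated stress response genes, 11 of 18 transporters and 14 of 17 synthetases. The culture-induced genes that hyperoxia did not lower by 0.8 had a median of 0.06, and 36.5% were below 0. The direction was not particular to the members, since 81.8% of the 636 genes lower by 0.8 in hyperoxia at 24 h without a rise of 0.8 in normoxia were below 0 as well, with a median of -0.13. The arrays of the 6 h groups also overlapped in most members. In 8 members (6.06%) all hyperoxia 6 h arrays lay below all normoxia 6 h arrays, against 2.00% of all genes and 14.5% of those 636 genes. The reverse held for 2 members (1.52%), against 2.31% of all genes. The 8 were Fgf21, Chac1, Gpt2, Siah2, Tbc1d31, Slfn2 and a pair of probes without a symbol. The genes share arrays, so a small shift of 1 array moves many of them together, and their number is no measure of certainty.

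**Figure D5:**
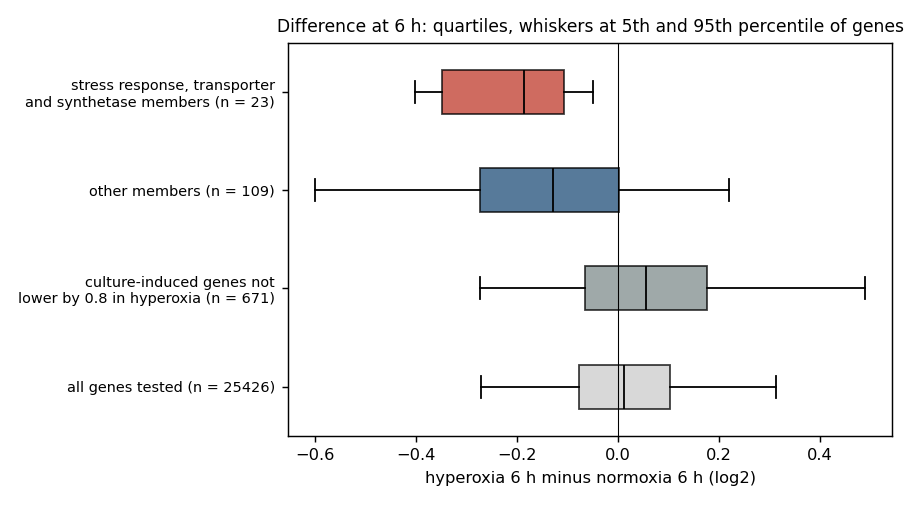
Box plots show the log2 difference of hyperoxia 6 h minus normoxia 6 h over genes, as median, quartiles and 5th to 95th percentile, for 23 stress response, transporter and synthetase members, 109 other members, 671 culture-induced genes not lowered by 0.8, and all 25426 genes. The medians are -0.19 in the first set, 0.06 in the culture-induced set and 0.01 in all genes.

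The other 84 members with a symbol had no common role on the lists. Several had clear signal on every array, and the following were chosen after their values were seen. Lonp1, the main protease of the mitochondrial matrix, had 4.97, 4.69, 5.05 and 5.08 in hyperoxia 24 h, 5.85, 5.64, 5.88 and 5.82 in normoxia 24 h, 4.67, 4.39, 4.62 and 4.33 in hyperoxia 6 h and 4.67, 4.65, 4.60 and 4.50 in normoxia 6 h. Its rise in hyperoxia was 0.45 ± 0.10 (limma adjusted p = 0.00182). Adm2, a peptide hormone of the calcitonin family, had -0.01, -0.85, 0.16 and -0.27 in hyperoxia 24 h, against 1.14, 1.46, 1.24 and 0.99 in normoxia 24 h. Crabp2, which carries retinoic acid to its nuclear receptors, differed by -1.40 ± 0.25 at 24 h, the kinesin gene Kif21b by -1.71 ± 0.18 and the laminin chain gene Lama1 by -1.51 ± 0.23. Siah2, a ubiquitin ligase, differed by -0.95 ± 0.11 and the secreted kinase gene Pkdcc by -1.19 ± 0.19. Among inflammation genes the iron-binding protein gene Lcn2 was the 1 member, and among cytoskeleton genes it was the neuronal tubulin gene Tubb3. Lcn2 differed by -1.30 ± 0.20 and Tubb3 by -1.45 ± 0.15 between hyperoxia and normoxia at 24 h.

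A few members are known from mesenchymal cells. Des, the intermediate filament gene of muscle, had 1.68, 2.05, 1.87 and 1.35 in hyperoxia 24 h, 3.09, 3.56, 3.58 and 3.19 in normoxia 24 h, 1.89, 2.14, 1.25 and 1.81 in hyperoxia 6 h and 2.31, 2.15, 1.37 and 1.74 in normoxia 6 h. The normoxia 24 h arrays stood apart and the other 3 groups overlapped. Cd248, a surface protein of pericytes and fibroblasts, chosen after its values were seen, had 3.83, 3.74, 3.66 and 3.66 in hyperoxia 24 h, against 4.77, 4.65, 4.49 and 4.75 in normoxia 24 h. It rose by 0.63 ± 0.18 over time in hyperoxia (limma adjusted p = 0.00996). Des is the only member on the list of 15 fibroblast and smooth muscle markers. Of the 15, 9 rose and 0 fell over time in hyperoxia (25.0% and 27.4% of all genes). In normoxia 10 rose and 0 fell (20.6% and 23.5% of all genes). At 24 h, 1 was higher (Tcf21) and 3 lower (Des, Cspg4 and Thy1) in hyperoxia, where 15.5% of all genes were higher and 12.8% lower. All 15 were above background in every group, and the part of these cells in the values of Des, Ddr2, Cd248 and Adamts14 was not tested.

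Many of the widest differences belonged to dim probes with large errors. Of all members 96 were well above background on every array, 9 were so on no hyperoxia 24 h array, 7 on no normoxia 6 h array, and 3 of these on no array of either group. Where a group had no such array, a floor was set on each of its arrays. It was the higher of the gene's own signal and the array's lowest signal well above background. The fold is then a lower limit for the means, with no allowance for the spread of the normoxia 24 h arrays. Ms4a3, a membrane protein gene of myeloid precursors, was at least 8.66-fold lower in hyperoxia at 24 h, with -7.91, -5.90, -7.78 and -7.05 in hyperoxia 24 h against -2.75, -2.27, -3.18 and -6.16 in normoxia 24 h. Its normoxia 6 h arrays ran from -7.02 to -3.23, so 1 of them overlapped the normoxia 24 h range. Cyp4f14, a fatty acid hydroxylase, was at least 7.85-fold lower in hyperoxia, but its normoxia 24 h arrays read -4.06, -3.99, -0.51 and -7.51. Unc5cl was at least 5.82-fold lower, 4932415M13Rik at least 4.42-fold and the noncoding RNA gene Rmst at least 3.73-fold. Tm6sf1 was measured in both 24 h groups and differed by -2.73 ± 0.44, Cass4 by -2.07 ± 0.30, Dleu7 by -2.20 ± 0.29 and Rgs7bp by -2.21 ± 0.61. A second probe of Cass4 had the same signs but did not meet the rule. It differed by -0.78 between hyperoxia and normoxia at 24 h and by 1.57 between 24 h and 6 h in normoxia. In other members the rule was met through some of the normoxia 24 h arrays. Cad, the first enzyme complex of pyrimidine synthesis, had 0.55, -2.74, 0.60 and -2.39 in normoxia 24 h, where 2 arrays overlapped the 6 h values. Gm7969 had 5.05, -3.50, -2.57 and -1.86 in normoxia 24 h, a single high array, and its second probe had the opposite sign at 24 h (0.17). A single high normoxia 24 h array also carried further members, which were not counted. It was replicate 3 in Gm9777 (1.02), 4930544D05Rik (0.27) and Cyp3a13 (0.55), the array with the lowest share of probes well above background (53.7%). In Dbhos (0.40) and A_55_P2162792 (0.87) it was replicate 2, and in 5033423O07Rik (-0.49) replicate 4. Of 24 members with further probes above background on at least 3 normoxia 24 h arrays, 22 had the same signs on all their probes, and 13 met the rule on all of them. The exceptions were Gm7969 and the phospholipase gene Plcb1.

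Of the 25 members without a symbol, 11 had all normoxia 24 h arrays above the arrays of both compared groups. The probes with the largest differences are shown because no gene name stands for them, each 60 bases long with the position that the array annotation gives on mm9.

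A_55_P2108311, mm9 chr5:26376635-26376694, minus strand: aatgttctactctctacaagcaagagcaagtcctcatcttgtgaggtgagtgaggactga
A_30_P01028782, mm9 chr2:65253199-65253258, plus strand: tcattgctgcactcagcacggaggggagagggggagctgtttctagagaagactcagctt
A_55_P1998821, mm9 chr11:112500254-112500313, minus strand: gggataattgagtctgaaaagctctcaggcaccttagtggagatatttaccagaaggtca

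A_55_P2108311 had -7.81, -7.84, -7.65 and -7.67 in hyperoxia 24 h, none of them well above background, against -2.26, -3.63, -6.88 and -3.13 in normoxia 24 h, and was at least 8.11-fold lower in hyperoxia. Its normoxia 6 h arrays read -7.55, -7.61, -7.96 and -3.58, so 1 array at 6 h was as high as those at 24 h. The second probe (chr2:65240793-65292293_F) had -6.26, -6.13, -6.94 and -6.40 in hyperoxia 24 h and -3.20, -5.79, -2.76 and -0.24 in normoxia 24 h. A_55_P1998821 was at least 4.07-fold lower in hyperoxia at 24 h. In all 3 the normoxia 24 h arrays spread over more than 4 log2 units or held 1 array near the hyperoxia level.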

How the data were processed

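Cy3-labelled RNA of 16 samples was hybridised to one-colour Agilent arrays. Per the file headers, the deposited intensity (processed signal) of each spot was background-subtracted and detrended within the array by Agilent Feature Extraction 10.7.3.1 and not normalized between arrays. The authors' deposited value table holds log2 values of 43964 probes, and 43891 of them matched the scanner files with a correlation near 1. Its scale, centring and direction were taken from that match, and it was used as an alternative.

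Spots of a probe were averaged after control and outlier spots were left out. Values are log2 intensity minus the array's 75th percentile. The brightest probe of each gene name was tested where at least 3 of 4 arrays of some group read it well above background, which left 25426 genes. limma 3.58.1 in R 4.3.3 fitted 1 mean per group over all 16 arrays, and p-values were two-sided and adjusted by the Benjamini-Hochberg method over those genes. The script was tested on simulated data. Of 55681 probes, 27428 were named through an accession, 3483 by symbol and 507 by an older symbol, and 24263 kept the file's name. No column of unknown samples was met.

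Members and gene lists were chosen with earlier results of these data known. Genes were named by rule among members with a symbol: the 12 largest differences in each comparison the rule used, the 4 largest of each role list, the 8 smallest adjusted p-values in each tested direction, the 3 genes nearest each threshold, and marker genes. All 23 stress response, transporter and synthetase members were described. Slfn2, Stmn4, Lcn2, Tubb3, Plcb1, members named only for a motif and the list genes that are not members were named after their values were seen, as were those so marked in the text.

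Replicate numbers match the column on the slide, and on each slide hyperoxia and normoxia stood in different rows, so oxygen goes with slide row. Residuals of same-numbered arrays correlated at 0.246, 0.344, 0.244 and 0.261 at 24 h, above 0.1 in every pair, so that the numbers were taken to pair the 24 h arrays. At 6 h they correlated at 0.251, 0.254, 0.354 and 0.0865, and between times at 0.0044 to 0.0837, and were not taken as pairs. The main fit did not use the pairs at 24 h, and only the replicate block did. Alternatives were normexp background with quantile normalization, the authors' values, median scaling, other probe choices, no filter, other thresholds, fewer arrays, a replicate block, and leaving out each array.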

Additional observations from a re-analysis of the deposited data

Results flagged for a closer look

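In 220 groups of 4 arrays over 55 named genes, 11 held an array set apart from its group by more than Dixon's critical value, which is 5%, where chance gives about 1 in 20. Hyperoxia 24 h replicate 2 was the array in 3 of them, with log2 levels of -0.708 for Stc2 (others -0.166 to -0.0665), 4.527 for Wars (others 4.789 to 4.818) and -6.428 for Unc5cl (others -7.494 to -7.452). It was low in the first 2 and high in the last. In normoxia 24 h, 4932415M13Rik read -7.404 on replicate 1 (others -4.161 to -3.732), Acot2 read -0.440 on replicate 3 (others -0.667 to -0.653) and Slc6a9 read 5.299 on replicate 4 (others 5.547 to 5.568). In hyperoxia 6 h, Dleu7 read -5.440 on replicate 1 (others -6.184 to -6.092) and Lama1 read -0.402 on replicate 4 (others 0.478 to 0.589). In normoxia 6 h, Cyb5r2 read -3.946 on replicate 1 (others -4.285 to -4.237), Pycr1 read 0.775 on replicate 1 (others 0.119 to 0.184) and Tbc1d31 read 0.832 on replicate 2 (others 0.607 to 0.631). The cause of these values was not tested.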

How the results depend on the processing

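The number of genes meeting the rule was 132, and it was 74 with normexp background and quantile normalization, 677 with no filter on dim probes, 257 at a threshold of 0.6 and 72 at a threshold of 1. Leaving out 1 array at a time gave 114 to 155, and 78 of the 132 met the rule each time, among them 17 of the 23 stress response, transporter and synthetase genes, 50 of 84 other named genes and 11 of 25 without a symbol. With normexp 19 of the 23, 43 of the 84 and 8 of the 25 met it. At 6 h the count of members called was 0 in every alternative but the replicate block, where 2 were lower, Stmn4 (-0.54, limma adjusted p = 0.0434) and Tubb3 (-0.47, limma adjusted p = 0.0255). The median difference at 6 h stayed between -0.20 and -0.08. Over time in hyperoxia, 33 members rose, against 57 with median scaling, 46 with the replicate block and 23 to 41 with 1 array left out. For a comparison between times, the block fit leaves the spread between replicates out of its error, so its counts may run high. The 1 member that fell became 0 with normexp or median scaling, 2 with the replicate block, 3 with the mean of all probes, 7 with the 8 compared arrays alone and 1 to 4 with 1 array left out, with 4 without hyperoxia 24 h replicate 3, 3 without hyperoxia 6 h replicate 3 and 2 without hyperoxia 24 h replicate 4 or hyperoxia 6 h replicate 2. At 24 h the block changed the calls of Ddit3 and Atf5, given above, and no other call of a list gene named here. No named result changed sign while called. The cause of these changes was not tested. Dim probes limit the set, since 48 members (36.4%) had a normoxia 24 h mean below -3. The share was 21.4% of the 22463 genes that passed the same normoxia 24 h filter, and 30.5% of all genes tested. An SE over 0.5 for the difference at 24 h was found in 25 members.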
